A study of Homo sapiens with 12 samples.

Results

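Cytochromes P450 (CYP), UDP-glucuronosyltransferases (UGT), sulfotransferases (SULT) and glutathione S-transferases (GST) were followed in cells labelled HepG2, a line from a human hepatocellular carcinoma. A gene belonged to the set if its platform symbol named an isoform of these families, with CYP1A2, CYP1B1 and CYP7B1 left out. This gave 60 genes of 13881 measured: 40 CYP, 3 UGT, 8 SULT and 9 GST genes, read by 67 probes. The cells were grown in medium with fetal bovine serum. They were either mock-treated (control) or exposed to glycyrrhizin (a saponin of liquorice root), silymarin (a flavonolignan mixture from milk thistle) or ursodeoxycholic acid (a hydrophilic bile acid), each at 25 µM. Each of the 4 groups had 3 one-colour arrays, and nothing in the labels says that these came from separate cultures, so the p-values measure the spread between arrays, which may be technical. Treatment time is not given in the sources used here.

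In the liver, cytochromes P450 insert oxygen into drugs, steroids, fatty acids and bile acid precursors, with electrons supplied by a reductase. Glucuronosyltransferases, sulfotransferases and glutathione S-transferases then attach glucuronic acid, sulfate or glutathione, which makes the products more water-soluble and easier to export. Members of the CYP families 1 to 3 are the main drug oxidizers, while many others serve sterol, steroid, bile acid, retinoid and vitamin D metabolism. Hepatoma lines are known for low levels of many of these enzymes compared with hepatocytes.

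No member of the 4 families passed the test in any of the 7 comparisons (limma, Benjamini-Hochberg adjusted p under 0.05 over 13881 genes). Among all genes, 0.0072% passed for glycyrrhizin against control, and 0% for silymarin, for ursodeoxycholic acid and for the mean of the 3 agents against control. Between agents, 0.0504% passed for glycyrrhizin against silymarin, 0% for glycyrrhizin against ursodeoxycholic acid and 0.0504% for silymarin against ursodeoxycholic acid. At an unadjusted p under 0.05, 2 members stood out for glycyrrhizin, 2 for silymarin and 3 for ursodeoxycholic acid against control. These are 3.33%, 3.33% and 5% of the members, beside 5.71%, 5.24% and 5.55% of all genes. With a variance that follows brightness (limma-trend, robust) 0 members passed too, while 17, 4 and 6 genes of the whole array (0.122%, 0.0288% and 0.0432%) did so against control. Against control, these shares were near those of all genes and say nothing particular of the members.

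Before the levels are described, some properties of the arrays bear on them. The deposited intensities had array medians from 85.8 to 86.6, and no detection calls accompany them, so a dim probe cannot be told from background. Correlations of log2 values between arrays lay between 0.909 and 0.958, and the lowest median correlation with the others belonged to ursodeoxycholic acid replicate 1, at 0.923. Of 25 listed hepatocyte markers, 19 were measured, and their median log2 intensity of 6.4 lay below that of the median gene, 6.7. The marker APOB, the core protein of liver lipoproteins, read 8.89 and TTR, a plasma transport protein, 7.77, while APOH read 3.55 and CPS1, a urea cycle enzyme, 3.68. Of 11 neuroblast markers, 8 were measured with a median of 8.86, among them TH, the first enzyme of catecholamine synthesis, at 12.49 and STMN2, a neuronal protein, at 11.08. Other lists also read brighter than the hepatocyte list, with medians of 7.9 over 5 endothelial and 6.86 over 7 leukocyte markers, while 8 fibroblast markers read 6.15, 3 adrenal and gonad markers 6.25 and 7 intestine markers 4.49. The array means of the hepatocyte list lay between 6.18 and 6.44 in control and between 6.13 and 6.46 over the treated arrays, and those of the neuroblast list between 8.74 and 9.06 in control and between 8.67 and 9.24 over the treated arrays. For the hepatocyte and neuroblast lists the ranges of the groups overlapped. Their part in the results on the enzyme families was not tested.

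Probe intensities of different genes are not calibrated against each other, so levels are given as a description of brightness, which sets precision. The median member read 6.43 on the log2 scale, with 28 members above the median gene and 32 below it. The CYP genes ranged from 4.05 to 12.64 with a median of 6.89, the GST genes from 3.82 to 13.02 with a median of 7.21, the UGT genes from 6.15 to 7.64 and the SULT genes from 4.24 to 7.27 with a median of 5.68. Of the SULT genes 1 of 8 was brighter than the median gene, and of the GST genes 5 of 9.

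**Figure D1:**
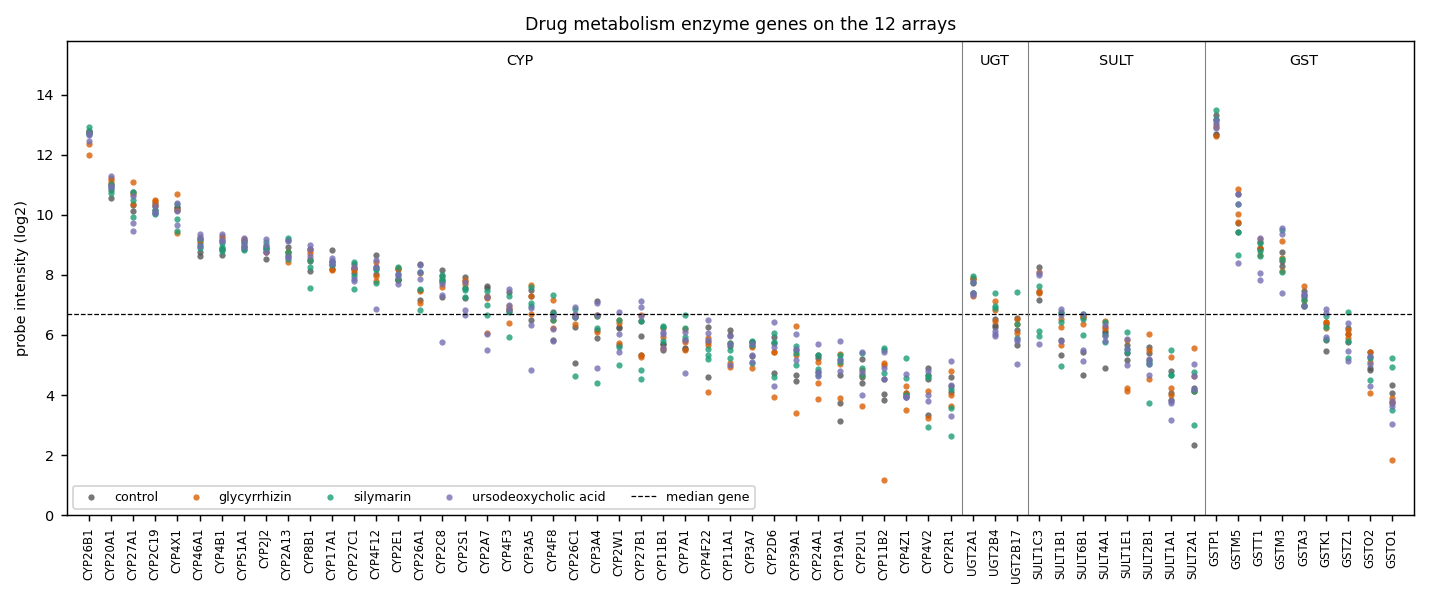
Log2 probe intensity (vertical axis) of the 60 enzyme genes, ordered by family and mean, with 1 point per array coloured by group and the median gene at 6.7 as a dashed line. GSTP1 at a mean of 13.02 and CYP26B1 at 12.64 are the brightest, and the points of the 4 groups overlap for most genes.

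Within the CYP family, 12 genes were listed as drug and xenobiotic oxidizers by family number (CYP1 to CYP3, without CYP2J and CYP2U), not by the known activity of each. CYP2R1 (a vitamin D hydroxylase of the CYP2 family) and CYP2A7 were thus among them. The 12 genes had a median of 6.9, and 7 of them were above the median gene. CYP2C19, which oxidizes many drugs, read 10.23 and CYP2E1, the ethanol oxidizer, 8.0. CYP2C8, which oxidizes paclitaxel, read 7.59 and CYP3A5 6.89. CYP3A4, the main drug oxidizer of adult liver, read 6.2, its fetal counterpart CYP3A7 5.47 and CYP2D6, which oxidizes many psychoactive drugs, 5.33.

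The 10 CYP genes of fatty acid and eicosanoid oxidation had a median of 6.71, with CYP4X1 at 10.06 and CYP4B1 at 9.04. The 17 genes of sterol, steroid, bile acid, retinoid and vitamin D metabolism had a median of 6.33 and ran from 4.53 to 12.64. CYP26B1, which degrades retinoic acid, read 12.64, CYP27A1, a sterol hydroxylase that also starts an alternative route to bile acids, 10.36, CYP46A1, the cholesterol hydroxylase of brain, 9.05 and CYP51A1, a demethylase of cholesterol synthesis, 9.03. CYP8B1, which sets the share of cholic acid, read 8.53, and CYP7A1, the rate-limiting enzyme of bile acid synthesis, 5.83. CYP19A1, the aromatase that makes oestrogens, read 4.77.

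Among the conjugating enzymes, GSTP1 was the brightest member, followed in its family by GSTM5 at 9.87, GSTT1 at 8.77 and GSTM3 at 8.65. GSTO1, which reduces dehydroascorbate and arsenic compounds, was the dimmest at 3.82. UGT2A1 read 7.64, UGT2B4, which conjugates bile acids, 6.58 and UGT2B17, which conjugates androgens, 6.15. SULT1C3 read 7.27 and SULT1B1 6.15, while SULT1A1, a phenol sulfotransferase, read 4.31, SULT1E1, the oestrogen sulfotransferase, 5.33 and SULT2A1, which sulfates bile acids and steroids, 4.24.

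Promoters of members that the comparisons below name, and of the brightest member, are shown to make the transcription start regions concrete. They are the 300 bases from 250 before to 50 after the annotated start, taken from RefSeq (GRCh38.p14), where 46 of the 60 members were found. Capitals mark matches to any of 5 motifs searched on both strands: TATAAA (a core promoter box), GCGTG (core of the xenobiotic response element), TGACNNNGC (core of the antioxidant response element), AGGTCA (nuclear receptor half-site) and GTTAAT (HNF1 half-site). The matches printed here lie on the strand shown and do not overlap each other. CYP4B1 lies at chr1:46798796-46799095 on the plus strand, CYP3A5 at chr7:99679947-99680246 on the minus strand, CYP2C8 at chr10:95069448-95069747 on the minus strand and GSTP1 at chr11:67583562-67583861 on the plus strand.
CYP4B1: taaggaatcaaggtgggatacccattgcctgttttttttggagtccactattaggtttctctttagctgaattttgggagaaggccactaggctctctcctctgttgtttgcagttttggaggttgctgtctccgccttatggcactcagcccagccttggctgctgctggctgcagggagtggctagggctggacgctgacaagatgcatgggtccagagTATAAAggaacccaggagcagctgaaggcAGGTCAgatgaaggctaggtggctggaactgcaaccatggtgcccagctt
CYP3A5: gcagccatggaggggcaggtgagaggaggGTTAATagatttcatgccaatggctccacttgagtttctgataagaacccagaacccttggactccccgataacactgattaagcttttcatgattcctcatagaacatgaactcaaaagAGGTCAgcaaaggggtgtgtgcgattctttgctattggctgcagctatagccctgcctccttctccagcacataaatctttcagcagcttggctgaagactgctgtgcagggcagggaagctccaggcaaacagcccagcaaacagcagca
CYP2C8: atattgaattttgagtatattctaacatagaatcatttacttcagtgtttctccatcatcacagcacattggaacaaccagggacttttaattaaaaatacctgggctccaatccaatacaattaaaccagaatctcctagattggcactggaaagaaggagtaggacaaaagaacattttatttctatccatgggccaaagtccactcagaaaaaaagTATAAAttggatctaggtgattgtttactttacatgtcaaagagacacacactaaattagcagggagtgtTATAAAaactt
GSTP1: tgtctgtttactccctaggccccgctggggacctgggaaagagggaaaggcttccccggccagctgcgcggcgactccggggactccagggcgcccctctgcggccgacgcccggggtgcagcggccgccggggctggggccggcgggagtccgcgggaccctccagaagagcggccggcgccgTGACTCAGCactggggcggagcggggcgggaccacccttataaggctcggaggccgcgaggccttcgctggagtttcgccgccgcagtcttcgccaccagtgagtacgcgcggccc

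In CYP4B1 the TATAAA match began at position -29 from the start. CYP2C8 had one at -31 and another at 39. CYP3A5 had no TATAAA in this window but held an AGGTCA at -101 and a GTTAAT at -221, and GSTP1 held a TGACNNNGC match at -66. Over the 59 windows of the 46 members, TATAAA occurred in 32.2%, beside 11.5% of all 35116 windows. AGGTCA occurred in 23.7% beside 13.8%, GCGTG in 30.5% beside 36.5%, TGACNNNGC in 10.2% beside 13.3% and GTTAAT in 6.78% beside 6.88%. Some members have several windows that share sequence, and these matches describe the letters in the windows only. A TATAAA was found in 13 of 31 CYP genes and 3 of 6 SULT genes, but in 1 of 8 GST genes.

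Differences from control were small next to their errors. The median size of the log2 difference over the members was 0.22 for glycyrrhizin, 0.27 for silymarin and 0.26 for ursodeoxycholic acid, beside 0.23, 0.24 and 0.25 for all genes, and the median standard error was 0.38. Past 2-fold lay 1, 3 and 4 members, or 1.67%, 5% and 6.67%, beside 3.85%, 4.12% and 4.99% of all genes. The signs were split about evenly, with 29, 29 and 33 of 60 members below control, beside 47.5%, 47.7% and 47.7% of all genes. The median member differed from control by 0.02, 0.02 and -0.05, where the median gene differed by 0.02 each time. The 3 comparisons share the control arrays.

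By family, the median difference from control for glycyrrhizin, silymarin and ursodeoxycholic acid was -0.04, -0.06 and -0.03 over the 40 CYP genes and 0.01, -0.04 and -0.14 over the 9 GST genes. Over the 8 SULT genes it was 0.23, 0.32 and 0.13, with 6, 6 and 5 of 8 above control. With single arrays left out, the SULT median lay between 0.14 and 0.43 for glycyrrhizin, 0.08 and 0.56 for silymarin and -0.2 and 0.36 for ursodeoxycholic acid. In the control arrays themselves the median SULT gene lay 0.31, -0.18 and 0.1 from its control mean. Over the 3 UGT genes the median difference from control was 0.18, 0.43 and -0.34, with 2, 3 and 0 of 3 above control. With single arrays left out, the UGT median lay between -0.06 and 0.40 for glycyrrhizin, between 0 and 0.77 for silymarin and between -0.39 and -0.26 for ursodeoxycholic acid. Among the CYP genes, the 17 of sterol, steroid, bile acid, retinoid and vitamin D metabolism had medians of 0, 0 and 0.26, and the 10 fatty acid oxidizers -0.19, -0.02 and 0.05. Of the enzymes that make or divert bile acids, CYP7A1 differed from control by 0.18, 0.64 and -0.09, CYP8B1 by 0.21, -0.38 and 0.34 and CYP27A1 by 0.31, 0 and -0.46, none past the threshold.

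**Figure D2:**
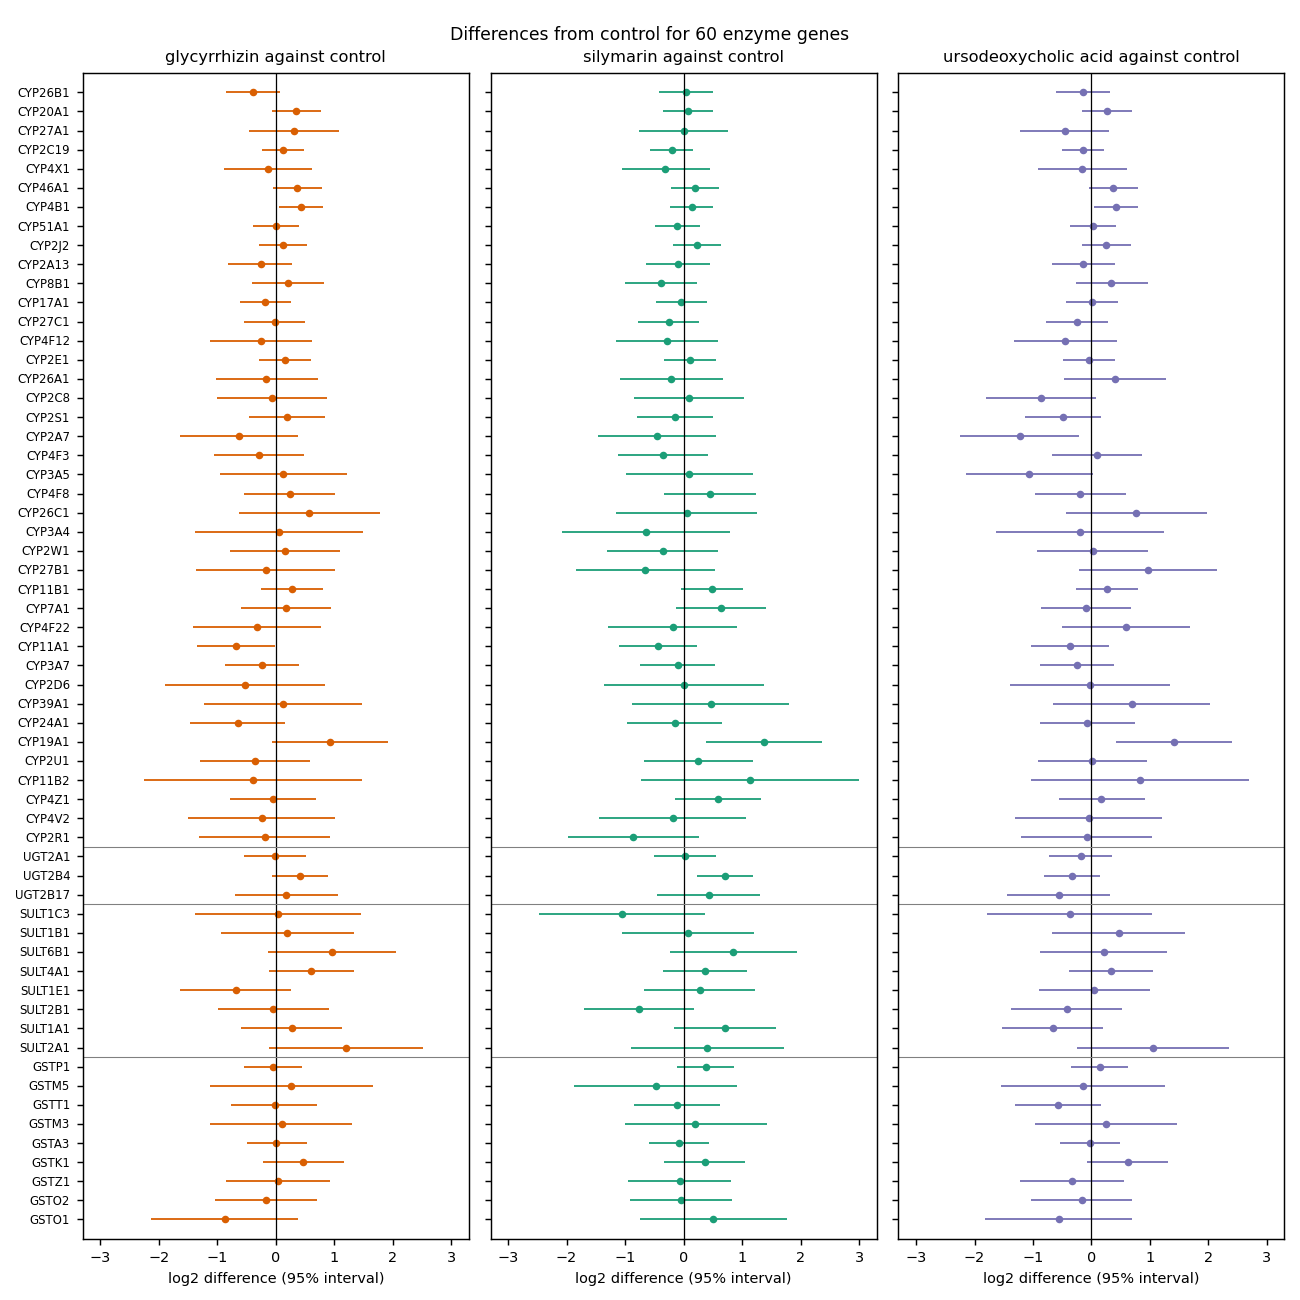
Log2 difference from control with its 95% interval (horizontal axis) for the 60 genes, ordered by family and brightness as rows, in 1 panel per agent. The intervals are wide for dim genes, and 0 of the 60 genes passed an adjusted p under 0.05 in any panel.

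For glycyrrhizin the smallest p of the higher members belonged to CYP4B1, a fatty acid oxidizer. Its log2 intensities were 8.85, 8.86 and 8.65 in control and 9.13, 9.22 and 9.31 with glycyrrhizin, so the groups did not overlap. The difference was 0.43 with an SE of 0.17 (limma adjusted p = 0.770). CYP19A1 differed by 0.93 (SE 0.45, limma adjusted p = 0.880), and by 0.57 without control replicate 2. SULT2A1 differed by 1.20 (SE 0.59, limma adjusted p = 0.883) and by 0.59 without control replicate 2, whose value of 2.35 was the lowest of the 12. Both are dim, and with an offset of 50 added before the log they differed by 0.27 and 0.31. On the lower side, CYP11A1, which starts steroid synthesis by cutting the cholesterol side chain, read between 5.64 and 6.15 in control and 4.95, 5.07 and 5.73 with glycyrrhizin. Only glycyrrhizin replicate 3 lay within the control range, and the difference was -0.68 with an SE of 0.30 (limma adjusted p = 0.851). The bright CYP26B1 differed by -0.39 (SE 0.21, limma adjusted p = 0.889), with control values of 12.77, 12.78 and 12.74 while glycyrrhizin replicates 2 and 3 read 12.76 and 12.36 and replicate 1 was lower. Without glycyrrhizin replicate 1 the difference was -0.20. CYP24A1, which inactivates vitamin D, differed by -0.65 and by -0.36 without that array. In 4 members (6.67%) the glycyrrhizin and control arrays did not overlap, beside 12.7% of all genes: CYP4B1, CYP46A1, SULT4A1 and CYP20A1. All 4 were higher with glycyrrhizin, a direction seen without overlap in 6.98% of all genes.

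With silymarin, UGT2B4 read 6.97, 6.90 and 7.40, against 6.28, 6.32 and 6.54 in control. All silymarin arrays lay above all control arrays, with a difference of 0.71 and an SE of 0.22 (limma adjusted p = 0.836). CYP19A1 read 5.19, 5.34 and 5.10 against 3.72, 3.13 and 4.67, a difference of 1.37 with an SE of 0.45 (limma adjusted p = 0.836). CYP11B1, the last step of cortisol synthesis, differed by 0.48 (SE 0.24, limma adjusted p = 0.932). The closely related CYP11B2, which makes aldosterone, differed by 1.13. It was dim, with a mean of 4.53 and a residual SD within groups of 1.18. Its values ran from 1.17, in glycyrrhizin replicate 3, to 5.56. What each probe can tell apart of the pair was not tested. On the lower side stood SULT2B1, a cholesterol sulfotransferase, CYP2R1, a vitamin D hydroxylase, and SULT1C3. SULT2B1 differed by -0.77 (limma adjusted p = 0.940) and by -0.32 without silymarin replicate 2. CYP2R1 differed by -0.86 (limma adjusted p = 0.941) and by -0.44 without silymarin replicate 3. SULT1C3 differed by -1.06 (SE 0.64, limma adjusted p = 0.942). With an offset of 50, CYP19A1 differed by 0.41, SULT2B1 by -0.27 and CYP2R1 by -0.18. Groups did not overlap in 6 members (10%), beside 10.8% of all genes, and 5 of these (8.33%, beside 6.21% of all genes) lay higher with silymarin, CYP7A1 with a difference of 0.64 among them.

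With ursodeoxycholic acid, CYP19A1 read 4.79, 5.18 and 5.80, all above the control values, with a difference of 1.42 and an SE of 0.45 (limma adjusted p = 0.760), or 0.45 with an offset of 50. CYP4B1 read 9.35, 9.15 and 9.13, a difference of 0.42 with an SE of 0.17 (limma adjusted p = 0.884). CYP46A1 differed by 0.37 (SE 0.19, limma adjusted p = 0.895). Below control, the smallest p values belonged to CYP2A7, CYP3A5 and CYP2C8, all of the drug and xenobiotic list. CYP2A7, a relative of the nicotine oxidizer CYP2A6, read 7.26, 7.63 and 7.58 in control and 5.49, 6.02 and 7.28 with ursodeoxycholic acid, a difference of -1.22 with an SE of 0.46 (limma adjusted p = 0.879). CYP3A5 read 6.5, 7.31 and 7.49 in control and 4.85, 6.34 and 6.90, a difference of -1.07 with an SE of 0.49 (limma adjusted p = 0.893). CYP2C8 read 7.27, 7.97 and 8.16 in control and 5.77, 7.32 and 7.70, a difference of -0.87 with an SE of 0.43 (limma adjusted p = 0.895). Replicate 1 was the lowest of the 3 for each, and without it CYP3A5 differed by -0.48 and CYP2C8 by -0.29. Groups did not overlap in 6 members (10%), beside 9.5% of all genes. For the mean of the 3 agents against control, 2 members (3.33%) had an unadjusted p under 0.05, beside 4.56% of all genes: CYP19A1 with a difference of 1.24 and CYP4B1 with 0.33. None separated all 9 treated arrays from the 3 control arrays, beside 0.792% of all genes.

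Of the 12 CYP genes listed as drug and xenobiotic oxidizers, 11 were below control with ursodeoxycholic acid, with a median difference of -0.17, beside 47.7% of all genes below control. Without CYP2R1 it was 10 of 11, with a median of -0.20. The differences ran from -1.22 to 0.02, and 0 of the 12 passed the test. Leaving out each array in turn, 8 to 11 of the 12 were below control, with 8 without control replicate 2. Without ursodeoxycholic acid replicate 1 it was 10, with a median of -0.28. For ursodeoxycholic acid, 10 of 12 were below control with an offset of 16 (median -0.14), 9 with an offset of 50 (median -0.12) and 10 with array weights (median -0.19). With the dimmer 50% of probes left out, it was 7 of 7 (median -0.49). With glycyrrhizin 6 of 12 and with silymarin 8 of 12 were below control, with medians of -0.01 and -0.12. For the mean of the 3 agents it was 11 of 12, as for ursodeoxycholic acid, with a median of -0.19. Without control replicate 1, the counts were 8 of 12 with glycyrrhizin (median -0.16), 10 of 12 with silymarin (median -0.24) and 10 of 12 with ursodeoxycholic acid (median -0.21). The difference between agents in these counts was not tested. Within each array, the difference of each of the 12 genes from its control mean was taken, and the median over these genes. It was -0.60, -0.01 and -0.23 in the ursodeoxycholic acid arrays and -0.24, 0.18 and 0.05 in the control arrays themselves. The 2 groups of arrays thus overlapped.

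Ursodeoxycholic acid replicate 1 held the lowest of the 12 values for 13 of the 60 members (21.7%), beside 10.0% of all genes. It also held the highest value for 9 of the 60, beside 12.5% of all genes. The members lowest there were CYP2A7, CYP2C8, CYP2S1, CYP3A5, CYP4F12, CYP4F8, CYP7A1, GSTM3, GSTM5, GSTT1, GSTZ1, SULT1A1 and SULT1C3. CYP3A5 lay -2.2 from the median of the other 11 arrays and CYP2C8 -2.04. The same array had the lowest array weight in limma, 0.55, where silymarin replicate 2 had 0.58. Glycyrrhizin replicate 2 also held more than its share of lowest values, 8 of the 60 members (13.3%) beside 5.45% of all genes. Without ursodeoxycholic acid replicate 1, 27 of the 60 members were below control with that agent, with a median of 0.05, beside 49.4% of all genes. With it, 33 were below control, with a median of -0.05. Values without this array are given above for CYP3A5, CYP2C8 and the drug and xenobiotic list. CYP2A7 differed by between -1.73 and -0.84 with each array left out in turn. In this array the median GST gene lay -0.75 from its control mean, beside 0.24 and 0.02 in replicates 2 and 3.

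Between the agents, the pair of silymarin and ursodeoxycholic acid gave the smallest p of the members. UGT2B4 read 6.97, 6.90 and 7.40 with silymarin and 6.03, 6.13 and 5.97 with ursodeoxycholic acid, and the 2 groups lay on opposite sides of the control values. The difference was 1.05 with an SE of 0.22 (95% interval 0.56 to 1.53, limma adjusted p = 0.253), and between 0.89 and 1.14 without each array in turn. SULT1A1 read 4.66, 4.66 and 5.49 against 3.17, 3.79 and 3.75, a difference of 1.37 with an SE of 0.39 (limma adjusted p = 0.432), or 0.39 with an offset of 50. CYP27B1, which activates vitamin D, read 6.48, 4.82 and 4.52 against 6.63, 6.94 and 7.12, a difference of -1.62 with an SE of 0.54 (limma adjusted p = 0.501). UGT2B17 read 5.89, 7.44 and 6.37 with silymarin and 5.81, 5.87 and 5.05 with ursodeoxycholic acid. In this pair 10 members (16.7%) did not overlap, beside 14.7% of all genes, and 7 (11.7%) had an unadjusted p under 0.05, beside 8.52%.

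**Figure D3:**
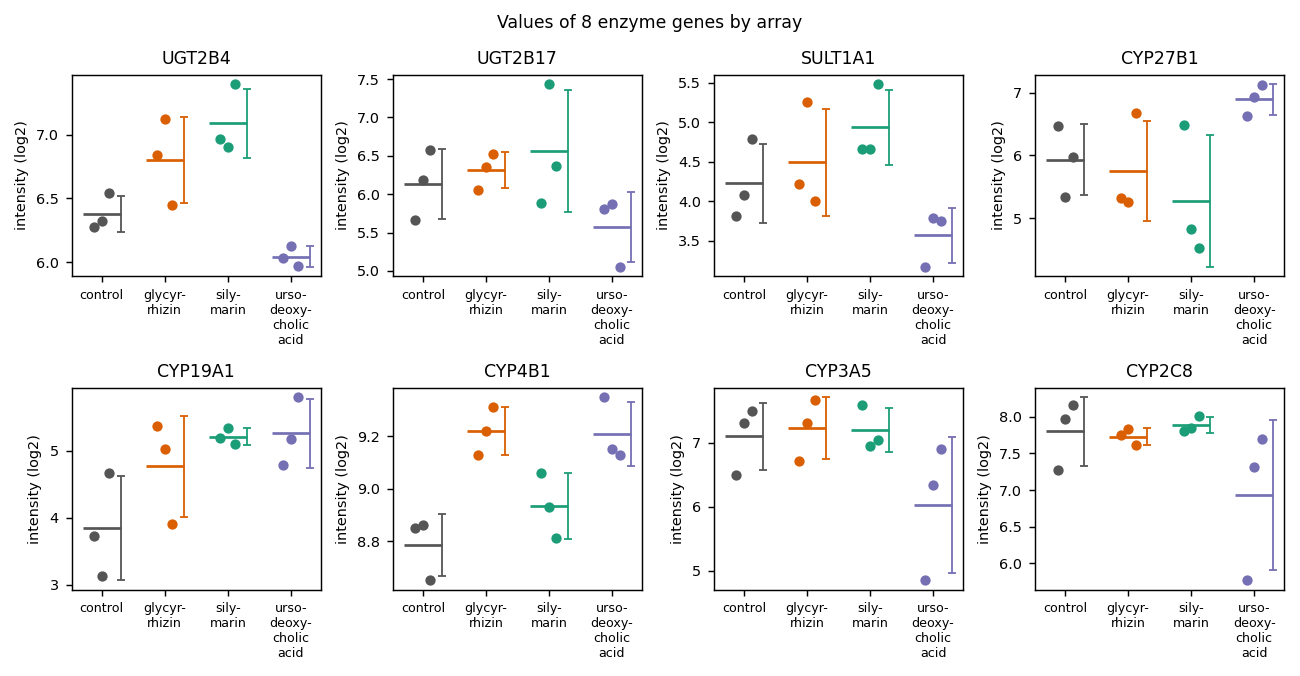
Log2 intensity by array (points), group mean (line) and SD (bar, n = 3) for 8 genes, each panel with its own vertical axis. UGT2B4 lies at a mean of 7.09 with silymarin and 6.04 with ursodeoxycholic acid, and the lowest point for CYP3A5 and CYP2C8 is ursodeoxycholic acid replicate 1.

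Glycyrrhizin against ursodeoxycholic acid gave 5 members (8.33%) at an unadjusted p under 0.05, beside 5.09% of all genes, and 4 without overlap (6.67%, beside 11.6%). UGT2B4 was 0.76 higher with glycyrrhizin (SE 0.22, limma adjusted p = 0.854), where the glycyrrhizin arrays read 6.84, 7.12 and 6.45. CYP3A5 was 1.20 higher (SE 0.49, limma adjusted p = 0.854), and 0.61 higher without ursodeoxycholic acid replicate 1. SULT1A1 was 0.93 higher (SE 0.39, limma adjusted p = 0.854) and 0.54 higher without glycyrrhizin replicate 2. Glycyrrhizin against silymarin gave 2 members (3.33%) at that p, beside 9.86% of all genes, and 6 without overlap (10%, beside 18.2%). GSTO1 differed by -1.38 (SE 0.57, limma adjusted p = 0.451), and by -0.71 without glycyrrhizin replicate 2, whose value was 1.84, and by -0.32 with an offset of 50. SULT1E1 differed by -0.96 (SE 0.43, limma adjusted p = 0.492), and by -1.51 without glycyrrhizin replicate 2 (adjusted p = 0.0922). CYP8B1 was 0.59 higher with glycyrrhizin (SE 0.28, limma adjusted p = 0.526) and 0.32 higher without silymarin replicate 3.

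The precision sets what could be seen. The 95% interval of the difference lay wholly within 2-fold of control for 25 of 60 members with glycyrrhizin, 21 with silymarin and 26 with ursodeoxycholic acid. The median interval reached 0.84 log2 units to each side. For the other members the interval reached past 2-fold, so a difference of that size was not excluded. The residual SD between arrays of a group had a median of 0.45 over CYP, 0.52 over GST, 0.62 over SULT and 0.27 over UGT genes, beside 0.43 for all genes. SULT genes, which were mostly dim, had 1, 0 and 0 of 8 intervals within 2-fold for the 3 agents.

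**Figure D4:**
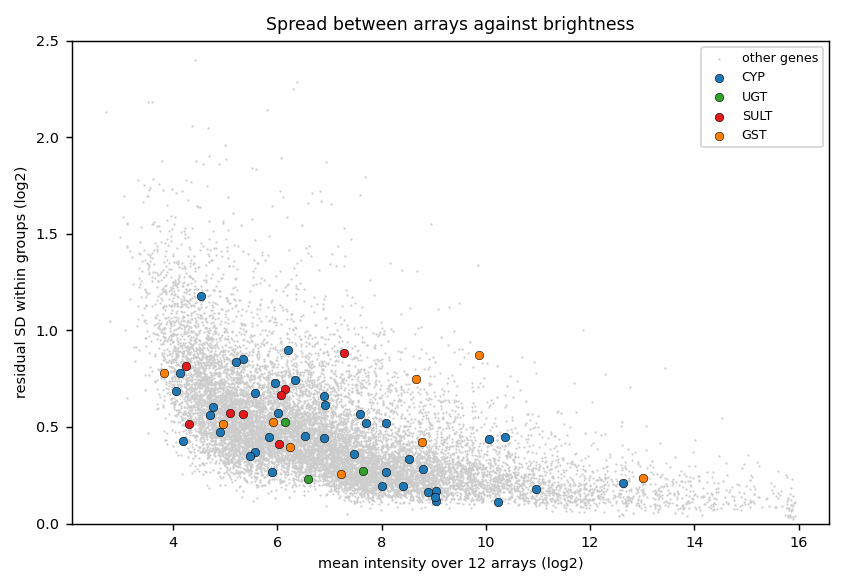
Residual SD within groups (vertical axis, log2) against mean intensity over the 12 arrays (horizontal axis, log2) for all genes in grey and the enzyme genes coloured by family. The SD falls with brightness, from a median of 0.67 over the dimmest 25% of genes to 0.24 over the brightest 25%, and GSTM5 and GSTM3 lie well above genes of similar brightness.

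Of the 60 members, 3 lay in the top 5% of spread among genes of like brightness, which is 5% of them, as for all genes. GSTM5 had a residual SD of 0.87, above 99.2% of the brightest 25% of genes, and GSTM3 0.75, above 98.2% of them. SULT1C3 had 0.88, above 96.9% of the 25% of genes nearest below those in brightness. Some members named above for a small p had a low spread. UGT2B4 had 0.23, above only 2.0% of genes in its 25% by brightness. CYP11B1 had 0.27, above 4.5%, and CYP4B1 0.12, above 6.8%. A low spread makes p smaller for the same difference. GSTM5 read 10.71, 9.72 and 9.44 in control, 10.04, 9.75 and 10.87 with glycyrrhizin, 9.43, 8.65 and 10.35 with silymarin and 8.40, 10.69 and 10.35 with ursodeoxycholic acid. The range within each group was thus wider than the distance between any of the group means. GSTM3 ranged from 7.39 to 9.55 and was lowest and highest in the ursodeoxycholic acid group.

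For 7 members more than 1 probe was present, and the brightest was used. For CYP19A1, whose probes lay 0.17 apart, the other probe differed from control by 0.81, 1.10 and 0.65 for glycyrrhizin, silymarin and ursodeoxycholic acid. Those values rest on control replicate 1, which read 1.58 beside 5.04 and 5.24 in the other control arrays. Without it the direction turned, to -0.38, -0.09 and -0.53. GSTP1 differed by -0.05 with glycyrrhizin and 0.38 with silymarin on the brightest probe and by 0.37 and -0.06 on the other. GSTM3 differed by 0.10, 0.20 and 0.25 on the brightest probe and by -1.0, -0.95 and -0.79 on the other, which read a mean of 4.39. GSTT1 differed by -0.57 with ursodeoxycholic acid on the brightest probe and by -0.01 on the other. Probe sequences were not used here, so cross-hybridization between close paralogs such as CYP3A4, CYP3A5 and CYP3A7 or the GSTM genes was not tested.

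The enzymes and cofactors around these families showed no call against control either. The lists of electron donors of cytochromes P450 (4 of 7 listed genes measured), sulfate donor synthesis (4 of 4), UDP-glucuronic acid synthesis (4 of 4), glutathione metabolism (10 of 12), other drug-metabolizing enzymes (31 of 40) and their regulators (11 of 16) had 0 genes past the adjusted threshold in each agent's comparison. Unadjusted p values under 0.05 were found in 0, 0, 1, 1, 2 and 0 of these genes for glycyrrhizin, 0, 0, 0, 0, 3 and 2 for silymarin and 0, 0, 0, 1, 3 and 1 for ursodeoxycholic acid, beside 5.71%, 5.24% and 5.55% of all genes. POR, the reductase that feeds electrons to many but not all P450s, read 9.06, and AHR, the receptor that switches on CYP1 genes, 7.63. CBR1, a carbonyl reductase, differed from control by -0.69, -0.88 and -0.70 log2 units with the 3 agents (limma adjusted p = 0.828, 0.847 and 0.893), and NAT1, an arylamine acetyltransferase, differed by -1.45 with ursodeoxycholic acid (limma adjusted p = 0.819). Both belong to the list of other drug-metabolizing enzymes, which leaned the other way. Of its 31 genes, 17, 18 and 21 were above control for glycyrrhizin, silymarin and ursodeoxycholic acid, with medians of 0.05, 0.09 and 0.08. KEAP1, the repressor of the antioxidant factor NFE2L2, differed from control by -0.48 with ursodeoxycholic acid (limma adjusted p = 0.879), and NFE2L2 itself was 0.55 above control with silymarin (limma adjusted p = 0.931). The 11 regulators as a list were split, with 6, 5 and 6 above control for glycyrrhizin, silymarin and ursodeoxycholic acid. Their medians were 0.01, -0.03 and 0.06.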

How the data were processed

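The authors deposited 1 linear intensity per probe for each of the 12 Cy5 arrays, grouped by the titles in the labels into 4 groups of 3. These intensities already shared a common distribution. The submitters' processing notes name limma, without further steps. Of 27561 probes, 15650 carried 1 gene symbol, and each of 13881 genes was represented by its brightest probe. The log2 of the deposited intensities went into limma 3.58.1 under R 4.3.3: lmFit with a mean for each group, eBayes (8 residual degrees of freedom), 7 two-sided comparisons, and Benjamini-Hochberg adjustment over all genes with a threshold of 0.05. Intervals are 95%. Precision is limited by having 3 arrays in a group. The fit was tested on simulated data, with independent noise and shifts larger than any group difference given here. Its power for differences of the size given here was not tested. Members and lists were chosen with earlier results of these data known. The naming rule took, for each agent, the 3 members of smallest p in either direction and, for each pair of agents, the 3 of smallest p. Levels are given for the brightest members of a family and for well-known enzymes. Members outside this rule were picked with their values in view. Other settings tried were renormalization, the mean of probes, platform symbols, leaving out dim probes, offsets of 16 and 50, a variance trend, array weights, the replicate block, the compared groups alone and each array left out in turn. A prior estimated from all probes was added after seeing the data. Sequences came from RefSeq (GRCh38.p14).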

Additional observations from a re-analysis of the deposited data

How the results depend on the processing

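Under 23 alternatives, 12 of which left out 1 array, the count of enzyme genes past the threshold was 0 in all 160 values. All 607 values of the 27 named differences kept their direction and their side of the threshold. Their size did not hold: 11 of the 27 shrank by over 1.5 times with an offset of 16 and 19 with 50, the latter including CYP19A1 with ursodeoxycholic acid from 1.42 to 0.45, CYP2R1 with silymarin from -0.86 to -0.18 and UGT2B4 between silymarin and ursodeoxycholic acid from 1.05 to 0.69. Members at an unadjusted p under 0.05 numbered 4 and 5 of 60 for glycyrrhizin and ursodeoxycholic acid with the replicate block, beside 5.85% and 5.91% of all genes, and 7 for ursodeoxycholic acid with an offset of 50, beside 5.77%. For glycyrrhizin there were 7 with array weights, beside 7.36%, and 7 without its replicate 3, beside 4.34%. For ursodeoxycholic acid there were 8 without its replicate 3, beside 7% of all genes. Other arrays left out gave as few as 1 for either agent. The replicate numbers did not pair the arrays (correlations of same-numbered deviations from -0.19 to 0.15, 4 of 18 over 0.1); with the replicate block the counts of all genes called were 0 for glycyrrhizin against control, 0 for glycyrrhizin against silymarin and 0 for silymarin against ursodeoxycholic acid, where the counts reported were 1, 7 and 7. For glycyrrhizin against control the count was 3 with the dimmer 50% of probes left out, 2 with an offset of 16, 7 with 50, 17 with the variance trend, 3 with array weights, 0 with only the compared groups and 0 with the prior from all probes. For silymarin against control, reported as 0, these were 2, 1, 2, 4 and 1 for the first 5 settings, and for ursodeoxycholic acid against control, also 0, they were 2, 3, 6, 6 and 4. The mean of the agents, reported as 0, gave 3 with an offset of 50 and 3 with the trend. Glycyrrhizin against silymarin gave 110, 19, 129, 217 and 20, and 0 with only the compared groups. Silymarin against ursodeoxycholic acid gave 4 with dim probes left out, 3 with an offset of 16, 16 with the trend, 0 with only the compared groups and 4 with the prior from all probes. Leaving out each array in turn, the counts ran from 0 to 1 for glycyrrhizin, 0 to 3 for silymarin and 0 to 20 for ursodeoxycholic acid against control, 0 to 0 for their mean, 0 to 6 for glycyrrhizin against silymarin, 0 to 1 for glycyrrhizin against ursodeoxycholic acid and 0 to 32 for silymarin against ursodeoxycholic acid. The cause of these moves was not tested. For ursodeoxycholic acid against control the 20, and for silymarin against ursodeoxycholic acid the 32, came without ursodeoxycholic acid replicate 3. Without silymarin replicate 1, silymarin against control gave 3. Of 276 values of the family medians, 246 moved by less than the spread between arrays. The SULT median for silymarin became -1.06 with the dimmer 50% of probes left out, which keeps 1 SULT gene, and that for ursodeoxycholic acid ran from -0.2 to 0.36 without each array in turn. Of the 60 members 30 have no probe among the brighter 50%.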
